A study of Mus musculus with 8 samples.

Results

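The heat shock proteins are represented by 10 of the 47493 gene entries in the expression table: Hspa1a, Hspa1b, Hspa8, Hsp90aa1, Hsp90ab1, Hspd1, Hspe1, Hspb1, Hsph1 and Dnajb1. They were chosen by gene name, as the main cytosolic and mitochondrial chaperones of the mouse. None was chosen by its measured level, but earlier results of these data were known when the list was made. RNA came from endogenous CD8+ T cells of female C57BL/6 mice aged 6 to 8 weeks, taken from inguinal lymph nodes and spleen. All 4 mice carried B16F10 melanoma (200000 cells on day 0) and had received 300 mg/kg cyclophosphamide on day 3, 2000000 Thy1.1+ Pmel-1 T cells with a first dose of 10000 IU IL-2 (daily for 3 days) on day 5, and 200 μg of the anti-CD4 antibody GK1.5 weekly from day 10. On day 25, Thy1.1-negative CD8+ cells of each mouse were divided on a magnetic column into an IL-18Rα-hi-enriched fraction, held by an IL-18Rα antibody, and a flow-through fraction, the control. Every mouse thus gave 1 library of each fraction, 8 in all, and no mouse without the regimen was analysed here. Levels are in FPKM, mapped fragments scaled to sequencing depth and to transcript length, which allows genes to be ranked.

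Heat shock proteins are molecular chaperones that hold, fold or refold other proteins. HSP70 proteins bind short exposed stretches of a client with the help of J proteins and nucleotide exchange factors, HSP90 proteins act later on kinases and receptors, and HSP60 with HSP10 forms a folding chamber in mitochondria. Some members are made at all times, whereas others are switched on by heat shock factor 1, which binds inverted repeats of GAA upstream of its targets, and T cells raise several of them on activation and growth.

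The upstream sequences show which of these genes carry such repeats and why a pair of them is hard to tell apart. RefSeq promoter windows (GRCm38.p6, 250 bases before to 50 after a start) were found for 7 of the 10 genes, in 10 windows. Hspa8, Hsp90aa1 and Hsp90ab1 had no window and were not searched. The core of 2 inverted units, GAANNTTC, which reads the same on both strands, was searched with its flanks, and was present in 7 of the 10 windows (6 of the 7 genes), against 7.86% of all 32851 windows. A core with a further inverted unit 2 bases to either side (3 units, both strands, each containing the shorter core) was present in 4 of the 10 windows (Hspd1, Hspe1 and both of Hsph1), against 0.603% of all windows. The windows counted are not independent. Both Hsph1 windows overlap and hold the same site, which lay after the start. Hspd1 and Hspe1 share a run of units, read from opposite strands, and the Hspa1a and Hspa1b windows are nearly identical. No match was found for Dnajb1, which says only that these letters are not in its windows. The 250 bases before the start are given below for the nearly identical inducible pair, for the shared region of the mitochondrial pair and for the small heat shock gene, with matches in capitals.
Hspa1a, chr17:34972157-34972406, minus strand: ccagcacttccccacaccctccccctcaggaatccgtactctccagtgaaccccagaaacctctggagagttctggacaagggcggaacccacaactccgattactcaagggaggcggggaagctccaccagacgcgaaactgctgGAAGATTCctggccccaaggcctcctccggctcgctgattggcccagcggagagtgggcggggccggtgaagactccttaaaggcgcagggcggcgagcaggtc
Hspa1b, chr17:34959239-34959488, minus strand: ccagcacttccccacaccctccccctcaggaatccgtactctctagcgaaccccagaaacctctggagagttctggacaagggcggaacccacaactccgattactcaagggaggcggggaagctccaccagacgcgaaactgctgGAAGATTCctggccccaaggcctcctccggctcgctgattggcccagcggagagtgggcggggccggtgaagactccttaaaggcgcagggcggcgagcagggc
Hspe1, chr1:55087898-55088147, plus strand: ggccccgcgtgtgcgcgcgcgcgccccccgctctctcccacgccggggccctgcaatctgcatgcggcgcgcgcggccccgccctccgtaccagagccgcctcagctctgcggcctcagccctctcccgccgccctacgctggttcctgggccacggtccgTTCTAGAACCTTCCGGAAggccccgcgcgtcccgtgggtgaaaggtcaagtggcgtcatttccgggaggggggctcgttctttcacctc
Hspb1, chr5:135887669-135887918, plus strand: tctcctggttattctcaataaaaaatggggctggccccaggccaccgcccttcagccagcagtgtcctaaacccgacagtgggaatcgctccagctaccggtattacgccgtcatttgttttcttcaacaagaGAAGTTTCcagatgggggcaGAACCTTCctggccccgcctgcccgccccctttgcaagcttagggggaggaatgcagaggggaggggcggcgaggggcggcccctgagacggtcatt

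The windows of Hspa1a and Hspa1b were 98.7% identical, with 4 differences in 300 bases (C44T, T47C, T249G and C276T, the Hspa1a base first, counted from 1 at the 5′ end of the window). Both held the same core, 104 to 97 bases before the start. Their single-exon transcripts are also alike: in the GENCODE M21 annotation (GRCm38, the build called mm10 by the submitters), 58.8% of all 50-base stretches of the Hspa1a transcript, and 47.1% of its 100-base stretches, occur without a change in that of Hspa1b. The authors divided reads with several matches between genes, so the split between Hspa1a (chr17:34969190-34972156) and Hspa1b (chr17:34956436-34959238) is uncertain, and their sum is given as well. Hspa1a is further overlapped over 2225 bases by Gm20481 on the opposite strand. The library kit kept strand, but beyond their stated corrections the authors left Cufflinks at its default options, which do not use it, so reads of the 2 genes cannot be told apart there. Hspd1 and Hspe1 lie head to head on chromosome 1 (chr1:55077835-55088243 and chr1:55088132-55091307), overlap by 112 bases, and share the run of inverted units shown above, which starts 89 bases before the Hspe1 start.

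The 10 genes spanned a wide range of levels. Hspa8, the constitutive cytosolic HSP70, was the highest, with means of 1409 FPKM ± 244 (SD, n = 4) among flow-through and 1047 ± 102 among enriched libraries, at the 99.2 percentile of the 12166 genes that averaged 1 FPKM or more over the 8 libraries. Hsp90ab1, the constitutive HSP90, followed, and overlapped with Hspa8 within each fraction. Hsp90aa1 (the inducible HSP90), Hspe1 (HSP10) and Hspd1 (HSP60) overlapped with one another at 157 to 555 FPKM. Hsph1, an HSP110-type exchange factor for HSP70, and Dnajb1, a J protein of the cytosol, overlapped with each other at 40.0 to 80.7 FPKM. The stress-inducible Hspa1b and Hspa1a, both cytosolic HSP70, ranged from 2.81 to 38.3 FPKM. Hspb1, the small heat shock protein HSP27, was the lowest, at 0.350 to 3.29 FPKM. It lay below every Hspa1a value among flow-through libraries and overlapped with Hspa1a among enriched libraries. All 10 passed that filter on low levels, Hspb1 narrowly, at the 3.8 percentile of the genes tested. The members together made up 0.447 to 0.693% of the summed FPKM of flow-through libraries and 0.354 to 0.458% of that of enriched libraries, lower after enrichment in all 4 mice.

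**Figure D1:**
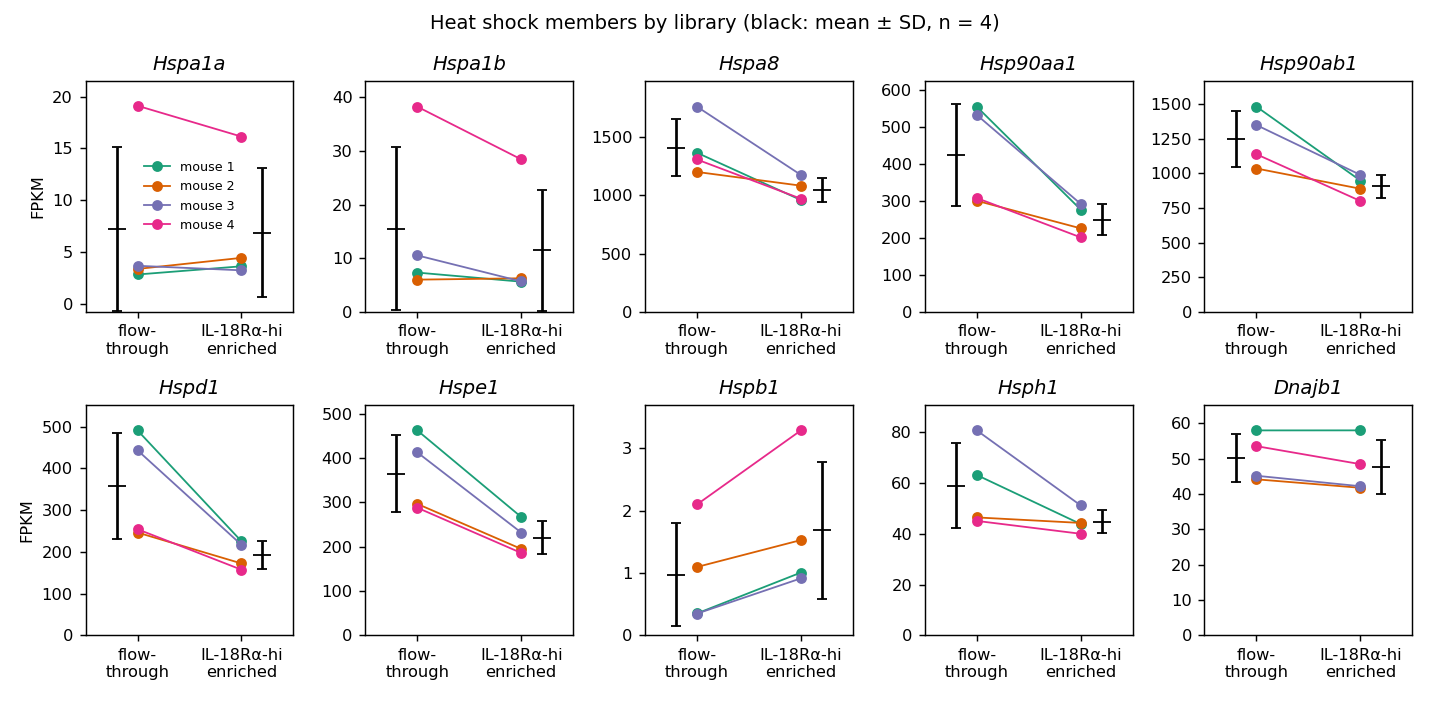
FPKM of each heat shock gene (vertical axes, different scale in each panel) in the flow-through and the IL-18Rα-hi-enriched library of each mouse, with lines joining the libraries of 1 mouse and black marks for the mean ± SD (n = 4). Hspa8, Hsp90aa1, Hsp90ab1, Hspd1 and Hspe1 lay lower in every enriched library than in any flow-through library, whereas Hspa1a and Hspa1b were set apart by mouse 4 in both fractions.

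The abundant constitutive and mitochondrial chaperones were lower in the IL-18Rα-hi-enriched cells. Of the 10 genes, 4 (Hspa8, Hsp90ab1, Hspd1 and Hspe1) passed the test as lower and 0 as higher (limma on log2(FPKM + 1), Benjamini-Hochberg adjusted p under 0.05 over all 12166 genes tested). At an unadjusted p under 0.05 the counts were 5 lower and 0 higher. Among all genes tested, 13.7% were called lower and 14.1% higher. The median log2 fold change, enriched over flow-through, was -0.40 over the 10 genes and -0.02 over all genes tested. Libraries of the same number were taken to be from the same mouse. With the mouse as a block, the counts were 6 lower and 1 higher, against 22.7% lower and 22.2% higher of all genes. The call depended on single libraries: without flow-through replicate 3, enriched replicate 2 or enriched replicate 4 the count of lower genes was 0, without flow-through replicate 1 or enriched replicate 3 it was 2, and with levels scaled to 8 CD8 T-cell identity genes it was 0, at larger log2 fold changes. It was also 0 without both libraries of mouse 4, a choice made after the values were seen. Lower calls over all genes fell in these fits too. From 1664 they went to 939, 958 and 971 without flow-through replicate 3, enriched replicate 2 and enriched replicate 4. They went to 1577 and 1119 without flow-through replicate 1 and enriched replicate 3. With T-cell scaling they were 924, and without mouse 4 they were 615.

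Hspd1, whose product HSP60 forms the mitochondrial folding chamber, had the largest log2 fold change of the 10 in size at a pseudocount of 1 (at 0.1, the low Hspb1 was at 0.88 and above it). It was at 491, 246, 444 and 255 FPKM in the flow-through of mice 1 to 4 and at 225, 172, 217 and 157 FPKM in their enriched cells. The fractions did not overlap, and the flow-through libraries of mice 1 and 3 were far above those of mice 2 and 4. The mean in the enriched fraction was 0.538 times that of the flow-through, a log2 fold change of -0.84 ± 0.25 (SE) in limma (adjusted p = 0.0373). With the mouse as a block the adjusted p was 0.00177, and without single libraries it ran from 0.0212 to 0.1, past the threshold in 3 of 8 fits.

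Hspe1, which encodes HSP10, the lid of that chamber, was at 462, 297, 413 and 288 FPKM in the flow-through and at 267, 195, 232 and 186 FPKM in the enriched cells. Its order of libraries was like that of Hspd1, again with mice 1 and 3 high in the flow-through and no overlap between fractions. The enriched mean was 0.603 times the flow-through mean, with a log2 fold change of -0.71 ± 0.18 (SE) in limma (adjusted p = 0.0223; 0.0200 to 0.0657 without single libraries). The ratio of Hspe1 to Hspd1 was between 0.931 and 1.20 in the 8 libraries, lower in the flow-through of mice 1 and 3 (0.941 and 0.931) than elsewhere.

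Hspa8, which also strips clathrin from vesicles, was at 1366, 1201, 1762 and 1308 FPKM in the flow-through and at 959, 1083, 1175 and 971 FPKM in the enriched cells. The highest enriched library, that of mouse 3, was below the lowest flow-through library, that of mouse 2, by a small margin. The enriched mean was 0.743 times the flow-through mean, with a log2 fold change of -0.42 ± 0.13 (SE) in limma (adjusted p = 0.0434). The call was kept in 1 of 8 fits that left out a library, that without flow-through replicate 2 (adjusted p = 0.0295), and in the others it ended at up to 0.111.

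Hsp90ab1, which keeps many kinases and receptors ready for use, was at 1482, 1035, 1349 and 1138 FPKM in the flow-through and at 947, 889, 989 and 800 FPKM in the enriched cells. No enriched library reached the lowest flow-through library. The enriched mean was 0.724 times the flow-through mean, a log2 fold change of -0.46 ± 0.13 (SE) in limma (adjusted p = 0.0302; 0.0154 to 0.0889 without single libraries).

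Hsp90aa1, the stress-inducible form of HSP90, was at 555, 300, 533 and 308 FPKM in the flow-through and at 277, 226, 292 and 201 FPKM in the enriched cells. Its fractions did not overlap, but mice 1 and 3 stood far above mice 2 and 4 in the flow-through. The adjusted p was 0.0504 in limma, just short of the threshold, at a log2 fold change of -0.72 ± 0.23 (SE). With the mouse as a block the adjusted p was 0.00246. The ratio of Hsp90ab1 to Hsp90aa1 was 2.67, 3.44, 2.53 and 3.70 in the flow-through and 3.43, 3.94, 3.39 and 3.97 in the enriched cells, higher in the enriched cells of all 4 mice.

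All flow-through values were above the highest enriched value in 5 of the 10 genes, against 15.9% of all genes tested, and the reverse held for 0 genes, against 16.4%. A gene without overlap has p = 0.0286 by definition in an exact two-sided permutation test over the 70 arrangements of the libraries, the smallest that 4 against 4 allow. For the other 5 genes that exact test gave p from 0.143 (Hsph1) to 0.886 (Hspa1a). Within mice, 6 of the 10 genes (the 5 above and Hsph1) were lower in the enriched cells of all 4 mice, against 30.6% of all genes tested. In bulk RNA, fewer cells of one kind and less RNA per cell cannot be told apart.

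The inducible and co-chaperone members did not pass the test, although the inducible Hsp90aa1 was lower without overlap between fractions (log2 fold change -0.72). Hsph1, the HSP110 exchange factor, was at 63.2, 46.5, 80.7 and 45.1 FPKM in the flow-through and at 43.8, 44.3, 51.2 and 40.0 FPKM in the enriched cells. The fractions overlapped, since mice 2 and 4 differed little, and the log2 fold change was -0.35 ± 0.18 (SE) in limma (adjusted p = 0.183). With the mouse as a block it was lower (adjusted p = 0.0378). Dnajb1, the J protein that starts refolding by HSP70, was at 58.0, 44.2, 45.2 and 53.6 FPKM in the flow-through and at 58.0, 41.8, 42.2 and 48.5 FPKM in the enriched cells. Its fractions overlapped almost fully, with a log2 fold change of -0.08 ± 0.13 (SE) in limma (adjusted p = 0.682; exact permutation p = 0.686).

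Hspb1, which holds unfolded proteins without ATP, was at 0.352, 1.10, 0.350 and 2.101 FPKM in the flow-through and at 1.01, 1.53, 0.916 and 3.29 FPKM in the enriched cells. It was the only one of the 10 that was higher in the enriched cells of all 4 mice, although the fractions overlapped. The log2 fold change was 0.45 ± 0.34 (SE) in limma (adjusted p = 0.35), and the adjusted p was 0.0205 with the mouse as a block. The value was 0.88 with a pseudocount of 0.1, 0.20 when enriched replicate 4 was dropped, 0.30 when flow-through replicate 1 or 3 was dropped and 0.70 when flow-through replicate 4 was dropped. Its levels rest on few fragments, approximately 5 to 45 in a library as estimated from the smallest steps in the FPKM values.

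**Figure D2:**
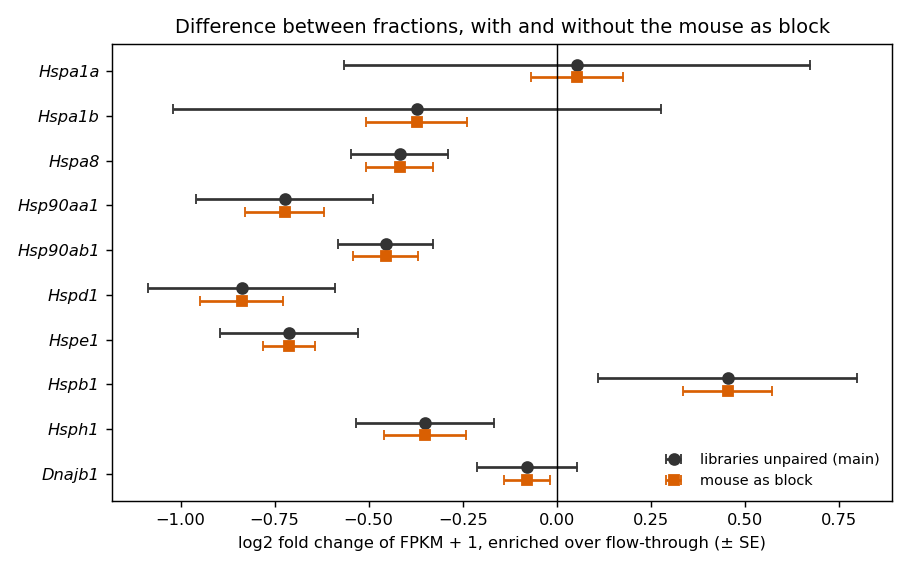
Log2 fold change of FPKM + 1, enriched over flow-through (horizontal axis), for each heat shock gene, with bars for ± 1 SE, from the fit without pairing (circles) and with the mouse as a block (squares). Blocking left the differences as they were and narrowed the errors, most for Hspa1a and Hspa1b, whose SE went from 0.62 to 0.12 and from 0.65 to 0.13.

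The stress-inducible HSP70 genes separated mice, not fractions. Hspa1a was at 2.81, 3.35, 3.65 and 19.1 FPKM in the flow-through and at 3.60, 4.42, 3.21 and 16.1 FPKM in the enriched cells. Hspa1b was at 7.31, 5.99, 10.5 and 38.3 FPKM in the flow-through and at 5.60, 6.24, 5.66 and 28.4 FPKM in the enriched cells. In both genes and both fractions mouse 4 was set apart: Hspa1a was 5.85 and 4.31 times the mean of the other 3 mice (flow-through, then enriched), and Hspa1b 4.82 and 4.88 times. The fractions overlapped in both genes. The log2 fold change was 0.05 ± 0.62 for Hspa1a (SE) in limma (adjusted p = 0.957) and -0.37 ± 0.65 for Hspa1b (SE) in limma (adjusted p = 0.695; 0.0611 with the mouse as a block). The value for Hspa1a was -0.21 with levels scaled to CD8 T-cell genes, and it was -0.09 to -0.41 without flow-through replicate 1, 2 or 3 or without enriched replicate 4. Without flow-through replicate 4 the value for Hspa1b was 0.17.

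The sum of Hspa1a and Hspa1b, which depends little on how their shared reads were split, was 10.1, 9.33, 14.2 and 57.4 FPKM in the flow-through and 9.21, 10.7, 8.87 and 44.6 FPKM in the enriched cells. It held the same pattern, with both libraries of mouse 4 highest. Hspa8 exceeded that sum by 102 to 135 times in the libraries of mice 1 to 3 and by 22.8 and 21.8 times in those of mouse 4. The ratio of Hspa1b to Hspa1a was lower in the enriched cells of all 4 mice (1.41 to 1.76, against 1.79 to 2.88), a ratio that rests on the uncertain split.

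Other genes of the heat shock response, apart from Hspb1, were near or below the other mice in mouse 4. Dnajb1 was 1.09 and 1.02 times the mean of the other mice, Hsph1 0.711 and 0.862 times, and Hsp90aa1 0.665 and 0.761 times (flow-through, then enriched). Bag3, a co-chaperone that heat shock factor 1 drives, was 0.912 and 1.10 times, and Dnaja1, an inducible J protein, 0.946 and 1.01 times. Hspb1 went with the HSP70 pair, at 3.50 and 2.86 times, on its low level. Hspa5, the HSP70 of the endoplasmic reticulum, was at 0.993 and 1.03 times.

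Immediate early genes, transcription factors and phosphatases that cells switch on within minutes of a stimulus or of handling, also followed the mouse. Fos was at 111, 260, 183 and 309 FPKM in the flow-through and at 132, 303, 188 and 320 FPKM in the enriched cells, with the same order of mice in both. Of 19 such genes tested, 14 were highest in mouse 4 in both fractions and 14 were lowest in mouse 1 in both. Mouse 4 was 1.67 and 1.54 times the mean of the other mice for Fos, 1.84 and 1.64 times for Jun, 1.62 and 1.32 times for Junb, 1.62 and 1.63 times for Egr1 and 1.74 and 1.55 times for Dusp1. Unlike Hspa1a and Hspa1b, these genes also spread over mice 1 to 3. Between fractions 2 of the 19 passed as higher and 0 as lower, against 14.1% and 13.7% of all genes tested. The 2 were Egr2 (log2 fold change 0.63) and Egr3 (0.73; limma, adjusted p = 0.00492 and 0.0251). With the mouse as a block 9 were higher and 3 lower, against 22.2% and 22.7% of all genes. Among the 3 was Jun, which was lower in the enriched cells of all 4 mice (log2 fold change -0.32; limma, adjusted p = 0.544 without and 0.00813 with the block). Whether handling had a part in any of these levels was not tested.

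**Figure D3:**
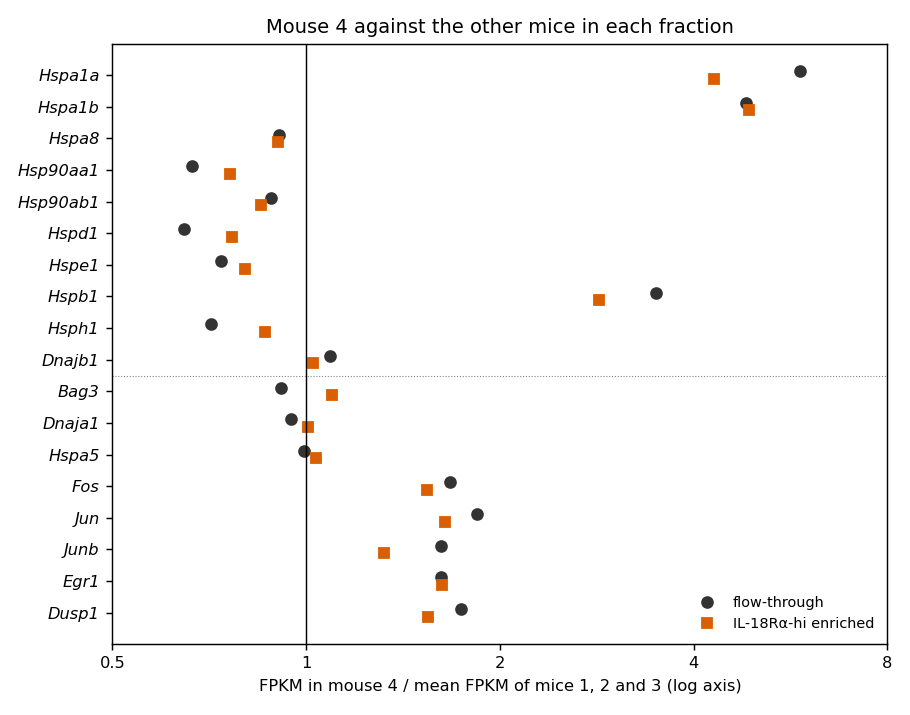
FPKM in mouse 4 divided by the mean FPKM of mice 1, 2 and 3 (horizontal log axis), separately for the flow-through (circles) and the enriched fraction (squares). Heat shock genes are above the dotted line and other chaperone and immediate early genes below it; Hspa1a, Hspa1b and Hspb1 lay at 2.86 to 5.85, the immediate early genes at 1.32 to 1.84, and the remaining chaperones near or below 1.

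Genes of another lineage differed between the fractions and mice beside the large chaperones. Against 13.7% of all genes tested, 6 of 16 erythroid progenitor genes were lower in the enriched cells (13 with the mouse as a block, against 22.7%). All 16 had a negative log2 fold change (median -1.35). Their summed level was 4466, 1346, 2425 and 1648 FPKM in the flow-through and 2103, 363, 997 and 397 FPKM in the enriched cells, and none was at 0 in any library. In the flow-through, mice 1 and 3, with the higher sums, were also the mice with more Hspd1 (1.87 times the mean of mice 2 and 4), Hsp90aa1 (1.79 times), Hsph1 (1.57 times), Hspe1 (1.50 times), Hsp90ab1 (1.30 times) and Hspa8 (1.25 times), and this held in the enriched cells for Hspd1 (1.34 times), Hsp90aa1 (1.33 times), Hspe1 (1.31 times) and Hsp90ab1 (1.15 times). Mice 1 and 3 also had the higher sums of 18 proliferation genes. These sums were 2533, 1633, 2033 and 1502 FPKM in the flow-through and 2915, 2247, 2539 and 2060 FPKM in the enriched cells. Enriched cells of mouse 1 had a larger erythroid sum than the flow-through of mice 2 and 4, but less Hspd1 (225.5 against 246.5 and 254.5 FPKM). Genes within that sum went both ways in these libraries. Hba-a1 (478.3 against 72.19 and 90.57 FPKM) and Car2 (327.8 against 218.1 and 277.9 FPKM) were higher in the enriched cells of mouse 1. Car1 was lower there (248.3 against 609.3 and 769.5 FPKM), as Hspd1 was. The part of erythroid or of proliferating cells in these differences was not tested. A fit without both libraries of mice 1 and 3, a choice made after the values were seen, left only mice 2 and 4. In it 3 of the 10 genes were lower and 0 higher, against 1330 lower and 1453 higher over all genes. Hsp90aa1 was lower there at a log2 fold change of -0.51 (limma, adjusted p = 0.0158).

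**Figure D4:**
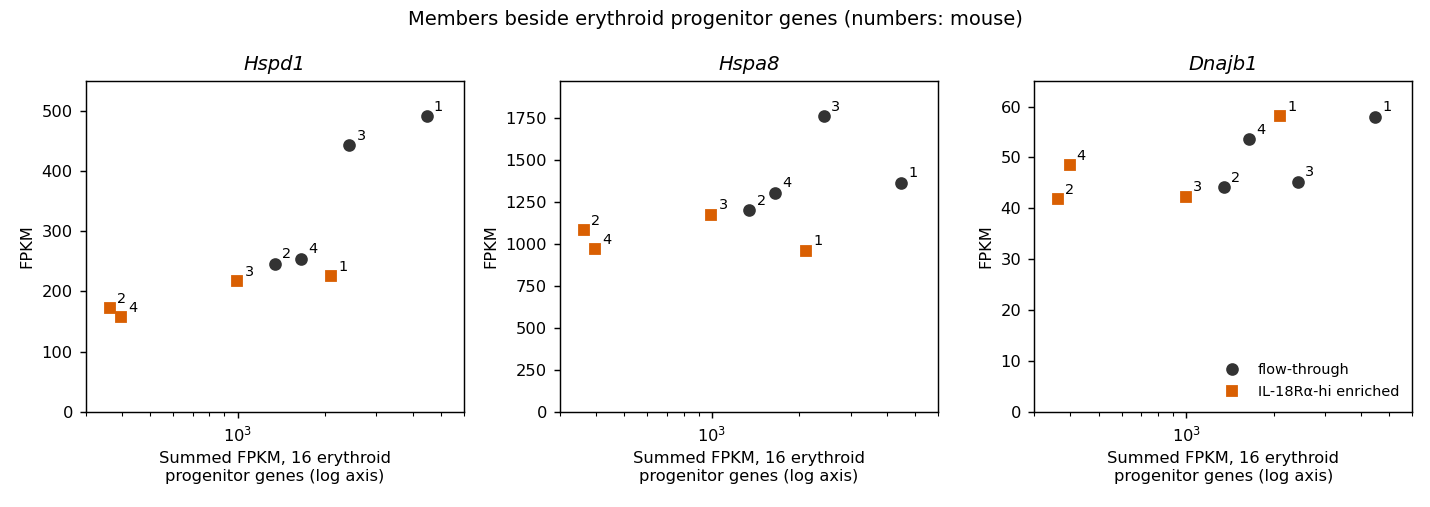
FPKM of Hspd1, Hspa8 and Dnajb1 (vertical axes from 0) against the summed FPKM of 16 erythroid progenitor genes (horizontal log axis) in each library; circles are flow-through, squares enriched, and numbers give the mouse. Hspd1 was highest in the flow-through of mice 1 and 3, where the erythroid sum was 4466 and 2425 FPKM, while Dnajb1 stayed at 41.8 to 58.0 FPKM in every library.

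The CD8 T-cell identity genes (8 genes such as Cd8a, Cd8b1 and Lck) were summed at 1337 to 2548 FPKM in the flow-through, lowest in mouse 1, and at 2542 to 2724 FPKM in the enriched cells, and 0 of 8 passed the test. When every library was scaled to them, the median over all genes moved to -0.33, and calls went from 1720 higher and 1664 lower to 514 higher and 924 lower. Relative to that median the 10 genes lay at a median of -0.40, against -0.38 relative to the median in the fit as deposited. Il18r1, which encodes the selected receptor, was 22.2 to 37.2 FPKM in the flow-through and 107 to 116 FPKM in the enriched cells (log2 fold change 1.85; limma, adjusted p = 0.00029). Against 14.1% of all genes called higher, 5 of 11 myeloid genes, 4 of 7 NK cell genes, 2 of 2 CD4 T-cell genes and 5 of 18 proliferation genes were higher in the enriched cells (9, 5, 2 and 12 with the mouse as a block). For plasma cells and B cells it was 1 of 6 genes each, a share near that of all genes (6 and 2 with the block). Mast cell and basophil genes went both ways, 2 higher and 2 lower of 7 (4 and 2 with the block), and 0 of 6 granulocyte progenitor genes passed (1 higher and 1 lower with the block).

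Across the wider chaperone system, 8 of 109 tested genes (7.34%) were higher and 27 (24.8%) lower, against 14.1% and 13.7% of all genes, with a median log2 fold change of -0.15. The blocked fit, with the mouse as block, gave 45 lower and 11 higher, against 22.7% and 22.2% of all genes. The mitochondrial group had the lowest median of the 9 lists: 6 of 12 genes were lower and 0 higher (median -0.50). The lists are not separate. Hspa9, Trap1 and Dnaja3, all lower, are counted again below among the HSP70, HSP90 and J protein genes. Grpel1, Grpel2 and Hscb, which did not pass, also stand in another list. The total of 109 holds each gene once. Hspa9, the mitochondrial HSP70, was at 190, 118, 169 and 124 FPKM in the flow-through and at 89.6, 81.7, 96.1 and 72.1 FPKM in the enriched cells, with no overlap (log2 fold change -0.80; limma, adjusted p = 0.0104). The same direction was seen for Htra2 (-0.95), a protease of the intermembrane space, Dnaja3 (-0.80), the J protein that serves Hspa9, and Clpp (-0.76), a matrix protease. The calls of Hspa9 and Dnaja3 were kept in 18 of 18 alternative fits and those of Htra2 and Clpp in 13 of 18.

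Of 14 genes of the cytosolic chaperonin CCT, which folds actin and tubulin, and of prefoldin, which hands it clients, 6 were lower and 0 higher (median -0.37). They included Cct3 (-0.49), Cct6a (-0.46), Cct4 (-0.44) and Tcp1 (-0.43), all subunits of the CCT ring, with calls kept in 8, 6, 12 and 7 of 18 alternative fits. In the blocked fit 10 of the 14 were lower. Among 22 HSP90 co-chaperones 6 were lower and 2 higher, 10 and 2 with the mouse as a block. Over all genes tested, 13.7% were lower and 14.1% higher, or 22.7% and 22.2% with the block. Ppid (-0.86), Fkbp4 (-0.65) and Cacybp (-0.61) were lower, and Fkbp5, a co-chaperone that the glucocorticoid receptor induces, was higher by 0.83 (23.3 to 32.0 FPKM in the flow-through, 45.7 to 54.5 FPKM in the enriched cells). Fkbp4 and Fkbp5 encode related proteins that compete for HSP90, and their log2 fold changes had opposite signs.

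Among 13 HSP70 co-chaperones 4 were lower and 0 higher, against 13.7% and 14.1% of all genes. The 4 were Bag2 (-1.07), Hspbp1 (-0.62), St13 (-0.36) and Bag5 (-0.31). The value for Bag3 was -0.36 (limma, adjusted p = 0.0704; 0.0493 with the mouse as a block). The calls of Bag2, St13 and Bag5 were kept in 7, 6 and 9 of 18 alternative fits and that of Hspbp1 in 14. Of 38 other J proteins tested 5 were lower and 4 higher, shares near those of all genes (13.7% and 14.1%). With the mouse as a block 10 were lower and 7 higher, against 22.7% and 22.2% of all genes. The largest differences past the threshold were lower values, in Dnajb4 (-0.96), Dnaja3, Dnajc11 (-0.61) and Dnajc27 (-0.47), with Dnaja1 at -0.08 (limma, adjusted p = 0.615). The 4 higher genes were Dnajb11 (0.45), Dnajc3 (0.43), Dnajc9 (0.37) and Dnajc13 (0.25). Of 8 other HSP70 and HSP110 genes tested Hspa9 was the 1 that passed (3 with the mouse as a block), with Hspa5 at 0.14 (limma, adjusted p = 0.418). The 2 remaining HSP90 genes went opposite ways: Trap1 of mitochondria was lower (-0.50; limma, adjusted p = 0.011), and Hsp90b1 of the endoplasmic reticulum was higher (0.50; limma, adjusted p = 0.0278; in 9 of 18 alternative fits, and 0.16 with T-cell scaling). Neither of 2 other small heat shock genes tested, of 9 listed, passed.

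Of the 3 heat shock factor genes tested, Hsf1, the master factor of the response, was lower, at 27.2 to 32.2 FPKM in the flow-through and 22.7 to 23.3 FPKM in the enriched cells (log2 fold change -0.36; limma, adjusted p = 0.00907) without overlap. That call was kept in 8 of 8 fits that left out a library and ended with T-cell scaling (limma, adjusted p = 0.0775), without both libraries of mouse 4 (0.0641) and without those of mice 1 and 3 (0.0648). Hsf4 was higher on a low level (0.543 to 1.29 against 1.38 to 2.46 FPKM; log2 fold change 0.59; limma, adjusted p = 0.0352), in 7 of 18 alternative fits, and Hsf2 was at 0.01 (limma, adjusted p = 0.959). Hsbp1, whose product binds heat shock factor 1, was tested with them and did not pass.

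**Figure D5:**
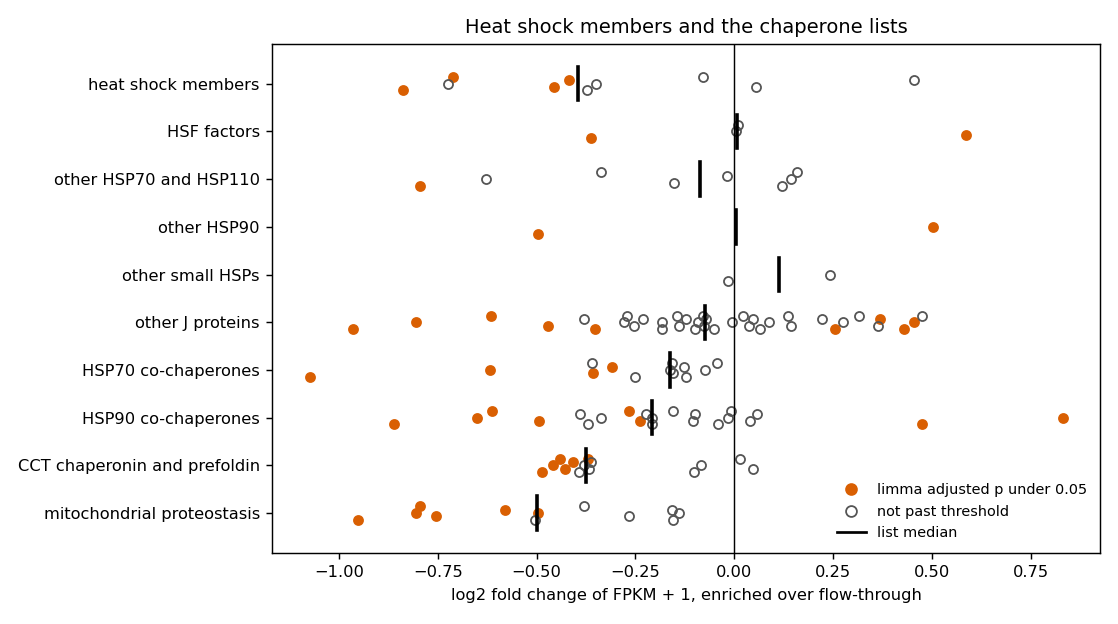
Log2 fold change of FPKM + 1, enriched over flow-through (horizontal axis), for the heat shock genes and the genes of 9 chaperone lists; filled points have a limma adjusted p under 0.05, open points do not, and black bars are list medians. The mitochondrial and CCT lists have no filled point above 0, whereas the J proteins and HSP90 co-chaperones have filled points on both sides.

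Patterns most like those of 3 members were sought over the 8 libraries among the 12165 other genes tested, as a description by Pearson r of log2(FPKM + 1), in libraries that share mice and fractions. For Hspa1b they were Gm25360 (r = 0.961), listed at 0 outside mouse 4, Hspa1a (0.956), Nit1 (0.955), Gm20481 (0.953), which overlaps Hspa1a on the other strand, and Sfxn4 (0.946). For Hspd1 they were Ppat, Lyar, Pa2g4, Hsp90aa1 and Gls2, with r of 0.996 to 0.997. For Hspa8 they were Mtap (0.985), Shq1, Tex10, Vars2 and Ddx51 (0.971 to 0.972). Among the members, Hspd1 and Hsp90aa1 had r = 0.996 and Hspd1 and Hspe1 had r = 0.986, whereas Hspd1 and Hspa1a had r = -0.424.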

How the data were processed

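RNA of the 8 libraries (4 flow-through, 4 IL-18Rα-hi-enriched) was poly(A)-selected, prepared with a stranded kit and sequenced as paired ends by the authors, who mapped reads to mm10 with TopHat and deposited FPKM per gene from Cufflinks 2.1.1, with corrections for multiply mapped reads and fragment bias. FPKM hold no counts. From the smallest steps of single-transcript genes, depth was estimated at 14.2 to 18.1 (in units of 1e6 fragments) per library. Members and gene lists were chosen with earlier results of these data known. Groups came from the labels.

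Fractions were compared with limma 3.58.1 (R 4.3.3) on log2(FPKM + 1) with a variance trend, over the 12166 genes averaging 1 FPKM or more, with Benjamini-Hochberg adjustment and a threshold of 0.05. Fold changes on that scale understate those of low genes. No blocked fit is described for these libraries, so the mouse block was an alternative. The labels give both fractions of each of the 4 mice, and libraries of the same number deviated from their group means together (r = 0.66, 0.589, 0.308 and 0.471 over genes, each above the highest r with another mouse). Single values were also compared by exact two-sided permutation. On simulated data, calls were tested before use. Named genes were the 10 members, up to 4 genes per chaperone or immediate early list with the largest difference past the threshold, a few stated regulators, and the 5 most alike patterns. Gene positions and transcripts came from GENCODE M21, which held 98.9% of the identifiers, and promoters from RefSeq. Alternatives were a pseudocount of 0.1, no filter, a mean of at least 5 FPKM, 3 other scalings, no variance trend, each library left out and the replicate block. Mouse numbers are the replicate numbers in the labels. That the same number marks the same mouse was inferred, since no label states it outright. Analyses of sequences and lists used Python 3.11.15.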

Additional observations from a re-analysis of the deposited data

Results flagged for a closer look

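A value is given here when 1 of the 4 libraries of a fraction lay so far from the rest that its gap to the nearest, as a share of the whole range, exceeded Dixon's 95% critical value. Of 146 groups of 4 examined, 7 met it, where chance alone gives about 1 in 20, or 7.3. Of the 20 groups of the 10 heat shock genes 4 met it, where chance gives 1.0. All 4 were libraries of mouse 4: Hspa1a at 19.1 FPKM in the flow-through (the others 2.81 to 3.65) and 16.1 FPKM in the enriched fraction (the others 3.21 to 4.42), and Hspa1b at 38.3 FPKM in the flow-through (the others 5.99 to 10.5) and 28.4 FPKM in the enriched fraction (the others 5.60 to 6.24). Because the genes share reads and the libraries share a mouse, these are not 4 independent observations.

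The other 3 were markers of cell types: Kit in the flow-through of mouse 1 at 38.3 FPKM (the others 30.0 to 30.4), Klrd1 in the enriched fraction of mouse 4 at 112.8 FPKM (the others 83.1 to 86.9) and Lck in the enriched fraction of mouse 1 at 452.6 FPKM (the others 426 to 429).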

How the results depend on the processing

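The lower calls among the 10 heat shock genes kept their direction in every alternative run but not their side of the threshold. The 4 lower genes of the fit as reported became 1 with no filter, 1 with an equal summed FPKM in each library and 0 with T-cell scaling, and ranged from 0 to 5 when 1 library was left out. With the replicate block they became 6, and the count of higher genes went from 0 to 1. The 2 alternatives chosen after the data were seen gave 0 lower genes without both libraries of mouse 4 (615 over all genes). Without both libraries of mice 1 and 3 they gave 3 (1330 over all genes). Higher calls stayed at 0 in the fits that left out 1 library.

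Of the chaperone lists together, the 27 lower genes became 45 with the replicate block, 16 with no filter, 12 with an equal summed FPKM in each library, 6 with T-cell scaling and 6 without both libraries of mouse 4, and ranged from 7 to 35 without single libraries. The 8 higher genes became 11 with the replicate block, 4 with no filter and 0 with T-cell scaling. They became 2 without both libraries of mouse 4 and 4 without those of mice 1 and 3. Without single libraries they ranged from 3 to 7. Over all genes, 1720 higher and 1664 lower became 2705 and 2763 with the replicate block, 514 and 924 with T-cell scaling, and 851 and 615 without both libraries of mouse 4, and ranged from 1107 to 1813 and from 939 to 1780 without single libraries. Fits without a library had fewer samples. Why the scalings changed the counts was not tested.

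None of the values that changed sign had passed the test. With T-cell scaling these were Hspa1a (-0.21), Hsf2 (-0.27), Hspa5 (-0.19), Fos (-0.20), Egr1 (-0.20) and Dusp1 (-0.30). Junb went to 0.01 with an equal summed FPKM in each library and to 0.07 without both libraries of mouse 4, and Hsf2 to -0.05 without the latter. Without single libraries the log2 fold change ranged from -0.41 to 0.61 for Hspa1a, -0.90 to 0.17 for Hspa1b, -0.05 to 0.06 for Hsf2, -0.14 to 0.02 for Dnaja1, -0.14 to 0.39 for Fos, -0.18 to 0.17 for Junb, -0.16 to 0.34 for Egr1 and -0.19 to 0.25 for Dusp1. The replicate block moved the call of Hsp90aa1, Hsph1 and Hspb1 among the 10 genes and of no other of them. The FPKM give no counting error for low genes such as Hspb1.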
